A study of Bos taurus with 48 samples.

Results

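The RNA of fetal longissimus muscle at 60 and at 135 d of gestation was compared on the 6 arrays labelled with these days, which are 6 of the 48 arrays and 12 of the 96 channels of a bovine skeletal muscle series. Members were chosen by the time point in the sample labels, and both dye channels of every array were used as single intensities. At 60 d the 3 arrays repeat 1 Piedmontese × Hereford fetus, GP663, and 1 Wagyu × Hereford fetus, GW911, each in 3 channels. At 135 d the 3 arrays hold 5 fetuses, namely GP012, GP672 and GP921 of the Piedmontese × Hereford cross and GW625 and GW780 of the Wagyu × Hereford cross, with GW780 in 2 channels and the others in 1. The comparison therefore rests on 7 of the 35 animals of the series, 2 against 5, and the repeated channels of an animal were averaged before any test.

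Every array carried 1 cross in each dye, with the dyes swapped between slides, and the labels name no treatment for either group. The labels name the tissue as skeletal muscle taken by biopsy, and give no sex or dam. The whole series spans 4 prenatal time points counting birth, several postnatal ones and a feeding trial. The 195 d and birth arrays of the same 3 slides are used below as a continuation of the time course, without a test.

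Skeletal muscle of large mammals forms in overlapping waves: primary myotubes arise in the embryo, and secondary fibres form around them in the fetus while progenitor cells go on dividing. During this time sarcomeric proteins are exchanged in a known order, from embryonic and perinatal isoforms to the slow and fast isoforms of postnatal fibres, and the fibres acquire the enzymes of glycogen, creatine phosphate and oxidative metabolism. Myostatin and the insulin-like growth factors are known regulators of how much muscle is made, and the Piedmontese breed is known for a myostatin mutation while Wagyu is known for marbling fat.

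The myosin heavy chains are near relatives, so the bases by which each was measured are shown. Each probe is a 60 base oligonucleotide, read in the orientation of the array files, and its last 30 bases are printed 5′ to 3′ in lower case. Capitals mark the letters AATAAA, the polyadenylation signal that lies close to the end of most messenger RNAs, which were found on this strand within the last 30 bases of 9.82% of all 21475 probes.
MYH3, embryonic heavy chain: actttccatgtgactgcttttcacatgcaa
MYH8, perinatal heavy chain: agctgtctgtaggggattcctaatgagggt
MYH7, slow heavy chain: gagctgcccctttggaagaagcagAATAAA
MYH4, fast heavy chain: gtggacaagttacaaagcaaagtcaaggcc
MYH1, fast heavy chain, first probe: AATAAAgagcatagggcactgtataagcaa
MYH1, fast heavy chain, second probe: actcaaatccagggagagatggaggacatt
The letters were present in the MYH7 probe and the first MYH1 probe. Whether a probe also binds the messenger of a related heavy chain was not tested. Both MYH1 probes moved alike from 60 to 135 d, with log2 differences of 1.57 and 1.61 without GP672.

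One animal stood apart from its label. Across 14528 genes, the log2 intensities of the 4 other fetuses at 135 d correlated with one another at r = 0.988 to 0.996, whereas GP672 correlated with them at 0.913 to 0.919. The 60 d fetuses correlated with those 4 at 0.946 to 0.974, so GP672 lay further from its own stage than the other stage did. Genes that define skeletal muscle were low in GP672. The log2 intensity of ACTA1, skeletal alpha-actin, was 9.83 there against 16.81 in GP012, 16.78 in GP921, 17.07 in GW625 and 17.50 in GW780. For MYL1, the fast alkali light chain, it was 8.38 against 17.05 in GP012, 17.18 in GP921, 17.18 in GW625 and 17.54 in GW780. The summed intensity of 14 muscle identity genes was 47698 in GP672, 782917 to 1058510 in the 4 others and 398460 to 674719 at 60 d, and TTN and NEB, the giant filament proteins titin and nebulin, were not well above background in GP672.

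In their place other genes were high in GP672. DBH and PNMT, enzymes of noradrenaline and adrenaline synthesis, stood at 15.16 and 14.98 in GP672, against means of 7.75 and 9.05 in the 4 others. CYP21A2 and STAR, which act in steroid hormone synthesis, stood at 13.97 and 13.16 against 7.52 and 7.80. CHGB, a protein of secretory granules, stood at 14.69 against 7.000. The 17 adipocyte genes summed to 479193 in GP672 and to 23790 to 40702 in the others. In all, 140 genes were more than 3 log2 units lower and 91 more than 3 log2 units higher in GP672 than the mean of the 4 others. The genes named here as high in GP672 were chosen after their values were seen. The label of GP672 is muscle, but the markers of that tissue summed to far less in its channel than in the 4 others. They were not all absent, as TTN and NEB were the only 2 of the 14 identity genes not well above background there. Each result is therefore given with and without GP672.

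**Figure D1:**
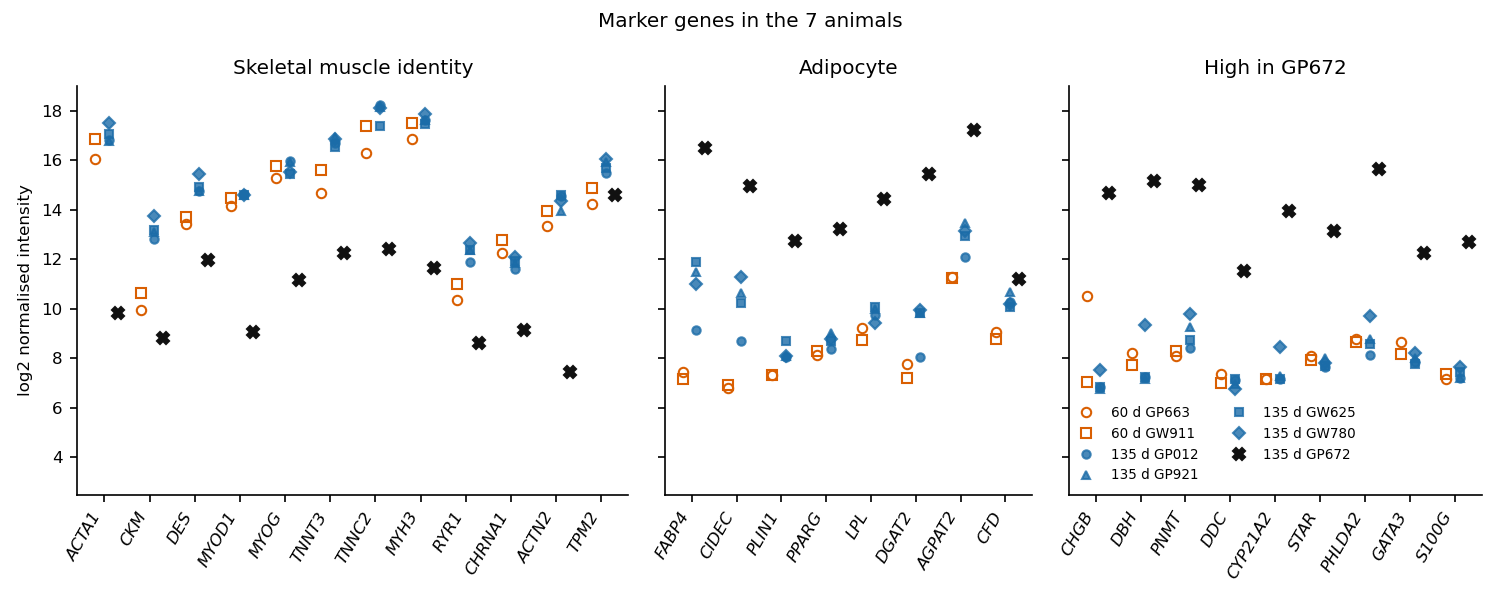
Log2 normalised intensity of marker genes in each of the 7 animals (open orange, 60 d; blue, 135 d; black X, GP672 at 135 d). GP672 lies below the 4 other 135 d fetuses in every muscle gene drawn and above them in every gene of the other panels.

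GP672 was hybridised in Cy3 on slide 2, with GW780 in the other dye of the same array. Some of the genes high in GP672 were also higher in GW780 on that array than in GW780 on slide 3. DBH read 11.52 on slide 2 and 7.15 on slide 3, PHLDA2, an imprinted growth gene, read 11.60 and 7.79, and KRT15 read 10.01 and 6.93, while STAR read 7.80 and 7.86. Over the 91 genes high in GP672 the median difference of the GW780 channels, slide 2 minus slide 3, was 0.17, and over all genes it was 0.00. Its cause was not tested.

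Signal varied between channels, and the number of animals limits the precision. Of the 42990 spots of an array, 59.6 to 75.9% passed the scanner's background test in each of the 12 channels, and none was saturated. Within slide and dye, fewer spots passed at 60 d than at 135 d, except in Cy3 on slide 1 (72.8% and 72.3%). The widest gap was in Cy3 on slide 3, with 59.6% at 60 d and 66.6% at 135 d. The 3 channels of GP663 had a median SD of 0.102 log2 units per gene and those of GW911 0.118. Between animals, the 60 d fetuses, each a mean of 3 channels, had a median SD of 0.0829, and the 4 fetuses at 135 d had 0.154, or 0.213 with GP672. On every slide the 60 d array lay at position 1 and the 135 d array at position 2, so that stage and position cannot be told apart. Since each sample is a piece of tissue, fewer cells of a type and less RNA per cell cannot be told apart either.

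A gene is called here where its Benjamini-Hochberg adjusted p over all genes was under 0.05 in limma's moderated test on animals. With all 7 animals 737 of 14528 genes were called, 5.07% of those tested, with 347 higher at 135 d (2.39%) and 390 lower (2.68%). Without GP672 the same test called 3019 genes, or 20.8%, with 1647 higher (11.3%) and 1372 lower (9.44%), and the 737 genes were all among them with their direction. Each of the 737 genes also changed in 1 direction on all 3 slides, with no overlap between the animals of both stages, as did 3018 of the 3019. Over all 14528 genes, the stages did not overlap in 4210 with 7 animals and in 6647 without GP672. Slide direction and overlap come from the same values as the test and add no separate support. A fit with slide as a replicate block used the single channels in place of animal means, with animal as a random block (consensus correlation 0.578, or 0.453 without GP672), so that repeated channels of an animal added to the sample number, and its counts were 2760 for 7 animals and 5253 without GP672. Over animal means without GP663, which leaves GW911 as the only 60 d animal, the counts were 34 and 1197. With channels centred on their medians in place of loess and Aquantile, 18 genes were higher and 74 lower with 7 animals, and 179 and 260 without GP672. Leaving out any other 1 of the 7 animals gave 213 without GW911, 295 without GW780, 318 without GP921, 346 without GP012 and 372 without GW625. Of the genes called without GP672, 439 were higher and 364 lower at 135 d by more than 1 log2 unit. Below, a gene rose or fell where it passed without GP672. Its log2 difference (135 d minus 60 d) is given with its standard error from 2 and 4 animals, followed by the value with GP672 included and by whether the gene was called there too. Where no adjusted p stands beside a gene that rose or fell, that p was under 0.05 without GP672. Every list count below is to be read against the shares over all genes without GP672, 11.3% higher and 9.44% lower.

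**Figure D2:**
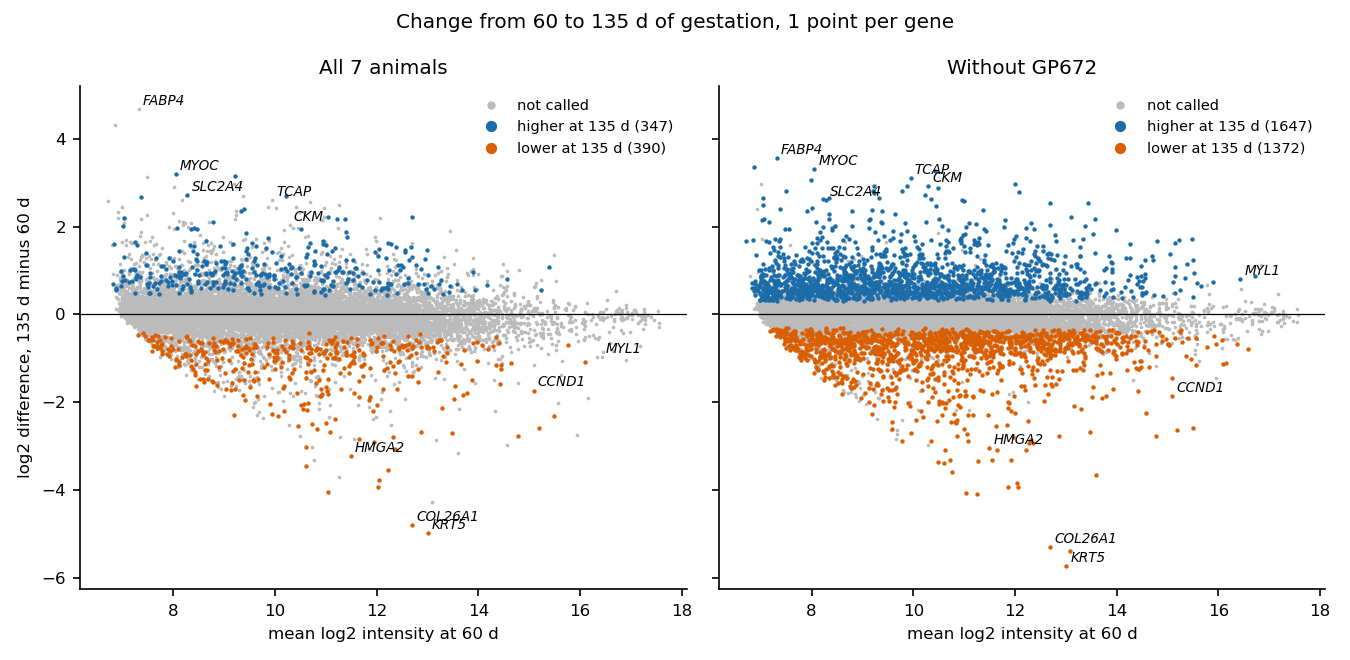
Log2 difference between 135 and 60 d against the mean log2 intensity at 60 d, 1 point per gene, with all 7 animals (left, 347 higher and 390 lower) and without GP672 (right, 1647 higher and 1372 lower). MYL1 lies below 0 on the left and above 0 on the right.

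The largest rises called in both fits included genes of secretion, lipid and sugar handling. MYOC, which encodes the secreted glycoprotein myocilin, had a log2 intensity of 8.08 in GP663 and 8.03 in GW911 at 60 d and of 11.41 in GP012, 11.44 in GP921, 11.30 in GW625 and 11.33 in GW780 at 135 d, with 10.75 in GP672. The stages did not overlap, and the log2 difference was 3.32 ± 0.09 (adjusted p = 1.5e-05) without and 3.20 (adjusted p = 0.0018) with GP672. ACOX2, an acyl-CoA oxidase of peroxisomes, rose by 7.05-fold, and its log2 difference was 2.82 ± 0.12 (3.14 with GP672, called). SLC2A4, the insulin-responsive glucose transporter of muscle and fat, had a log2 intensity of 8.15 in GP663 and 8.41 in GW911, then of 10.93 in GP012, 11.03 in GP921, 10.86 in GW625 and 10.74 in GW780, with 11.45 in GP672. Its log2 difference was 2.61 ± 0.12 (adjusted p = 1.1e-04) without and 2.72 (adjusted p = 0.002) with GP672, and again no animal of one stage reached the other stage. INHA, the alpha subunit of inhibin, had a log2 difference of 2.72 ± 0.22 (2.70 with GP672, called). PI16, a peptidase inhibitor of fibroblasts that was well above background in 4 of the 6 channels at 60 d, had 2.41 ± 0.23 (2.68 with GP672, called). RARRES2, which encodes the adipokine chemerin, had 2.06 ± 0.22 (2.18 with GP672, called), and FXYD1, a regulator of the sodium pump, had 2.38 ± 0.17 (2.17 with GP672, called). PEBP4 and the interferon-inducible GTPase IFI47 rose by 2.36 ± 0.19 (2.10 with GP672, called) and 2.15 ± 0.32 (2.01 with GP672, called), IFI47 being well above background in 1 of the 6 channels at 60 d.

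The largest falls exceeded the largest rises. KRT5, a keratin of basal epithelial cells, had a log2 intensity of 13.11 in GP663 and 12.90 in GW911 at 60 d and of 7.25 in GP012, 7.26 in GP921, 7.24 in GW625 and 7.34 in GW780 at 135 d, with 11.07 in GP672. Its log2 difference was -5.74 ± 0.10 (adjusted p = 1.1e-06) without and -4.98 (adjusted p = 0.046) with GP672, and it was above background in 4 of 5 channels at 135 d. COL26A1, a collagen, had -5.30 ± 0.26 (-4.79 with GP672, called), and SPOCK1, a matrix proteoglycan, had -3.93 ± 0.28 (-3.77 with GP672, called). HMGA2, a chromatin protein of embryonic cells, had a log2 intensity of 11.61 in GP663 and 11.38 in GW911, then of 8.63 in GP012, 8.40 in GP921, 8.42 in GW625 and 8.35 in GW780. All 5 fetuses at 135 d were lower, GP672 with 7.53 included, and the difference was -3.05 ± 0.12 (adjusted p = 7.1e-05) without and -3.23 (adjusted p = 0.0033) with GP672. LAMP5 had -3.83 ± 0.41 (-3.93 with GP672, called). KREMEN2, a receptor in Wnt signalling, had -3.08 ± 0.32 (-3.54 with GP672, called). PRSS12, a secreted protease of neurons, had -3.09 ± 0.13 (-3.01 with GP672, called), and the monooxygenase-like gene MOXD1 -2.93 ± 0.27 (-3.07 with GP672, called). BCL11B, a transcription factor, had -2.79 ± 0.20 (-2.91 with GP672, called). SYT13, a synaptotagmin, had -3.09 ± 0.21 (-2.84 with GP672, called). Without GP672, APCDD1, an inhibitor of Wnt signalling, was also among the largest falls with -3.66 ± 0.23 (-3.16 with GP672, not called).

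Genes of the contractile apparatus rose in part. Of the skeletal myosin heavy chains, 3 rose and 1 fell of 6 tested, with a median log2 difference of 1.11 (with GP672 0 rose, 0 fell, median 0.04). MYH1, a fast adult chain, had a log2 intensity of 11.34 in GP663 and 12.39 in GW911 at 60 d and of 13.70 in GP012, 12.96 in GP921, 13.60 in GW625 and 13.57 in GW780 at 135 d, against 8.60 in GP672. Without GP672 the stages were apart, with 1.59 ± 0.31 (adjusted p = 0.013) without and 0.62 (adjusted p = 0.86) with GP672. MYH7, the slow chain, had a log2 intensity of 14.82 in GP663 and 15.28 in GW911, then of 16.33 in GP012, 15.89 in GP921, 16.73 in GW625 and 16.78 in GW780, with 9.93 in GP672 and a log2 difference of 1.38 ± 0.27 (adjusted p = 0.011) without and 0.08 (adjusted p = 0.99) with GP672. MYH4, a fast chain, rose by 1.40 ± 0.18 (0.92 with GP672, not called). The developmental chains gave no call. MYH3, the embryonic chain, had a log2 intensity of 16.85 in GP663 and 17.50 in GW911, then of 17.65 in GP012, 17.62 in GP921, 17.47 in GW625 and 17.87 in GW780, a difference of 0.48 ± 0.19 (adjusted p = 0.13) without and -0.72 (adjusted p = 0.87) with GP672, and GW911 lay within the 135 d range. MYH8, the perinatal chain, had 0.85 ± 0.29 (adjusted p = 0.079) without and -0.01 (adjusted p = 0.999) with GP672. MYH7B, a slow-type chain, fell with a log2 difference of -0.75 ± 0.17 (-1.09 with GP672, not called).

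Among myosin light chains, 3 rose and 1 fell of 7 tested, with a median log2 difference of 0.29 (with GP672 0 rose, 0 fell, median -0.96). MYL11, the fast regulatory chain, rose by 1.24 ± 0.20 (0.17 with GP672, not called). MYL1 rose by 0.81 ± 0.22 (-0.96 with GP672, not called), so that GP672 alone turned its sign. MYL7, known from the atrium of the heart, rose by 1.33 ± 0.37 (0.16 with GP672, not called), and MYL6B fell with a log2 difference of -1.10 ± 0.19 (-1.90 with GP672, not called). MYL4, the embryonic light chain, showed no call, with 0.01 ± 0.17 (adjusted p = 0.98) without and -0.97 (adjusted p = 0.77) with GP672. Of actins, troponins and tropomyosins, 6 rose and 1 fell of 13 tested, with a median log2 difference of 1.13 (with GP672 0 rose, 0 fell, median 0.03). TMOD4 and LMOD2, which cap and lengthen thin filaments, rose by 2.64 ± 0.29 (2.08 with GP672, not called) and by 2.15 ± 0.31 (1.21 with GP672, not called). TPM1 rose by 1.69 ± 0.13 (0.78 with GP672, not called), whereas its relative TPM3, the slow tropomyosin, fell with a log2 difference of -0.89 ± 0.12 (-0.77 with GP672, not called). TNNT3, fast troponin T, rose by 1.62 ± 0.24 (0.72 with GP672, not called).

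The thick filament, Z-disc and M-band list was the largest of the contractile lists and held the most calls by number. Of its genes, 18 rose and 1 fell of 29 tested, with a median log2 difference of 1.10 (with GP672 0 rose, 1 fell, median 0.15), against 11.3% higher and 9.44% lower over all genes. TCAP, which caps titin at the Z-disc, had a log2 intensity of 9.86 in GP663 and 10.04 in GW911 at 60 d, of 12.41 in GP012, 13.23 in GP921, 12.88 in GW625 and 13.70 in GW780 at 135 d and of 10.53 in GP672. That is a 8.62-fold rise without GP672, with a log2 difference of 3.11 ± 0.32 (adjusted p = 0.0013) without and 2.60 (adjusted p = 0.11) with GP672. PDLIM3 and MYOZ1, Z-disc proteins that bind actinin, rose by 2.82 ± 0.21 (2.26 with GP672, not called) and by 2.53 ± 0.20 (1.91 with GP672, not called). NRAP, which anchors thin filaments during myofibril assembly, rose by 2.88 ± 0.18 (2.33 with GP672, not called). The fall belonged to MYBPC3, known as the cardiac myosin-binding protein, at -1.23 ± 0.19 (-1.13 with GP672, called).

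**Figure D3:**
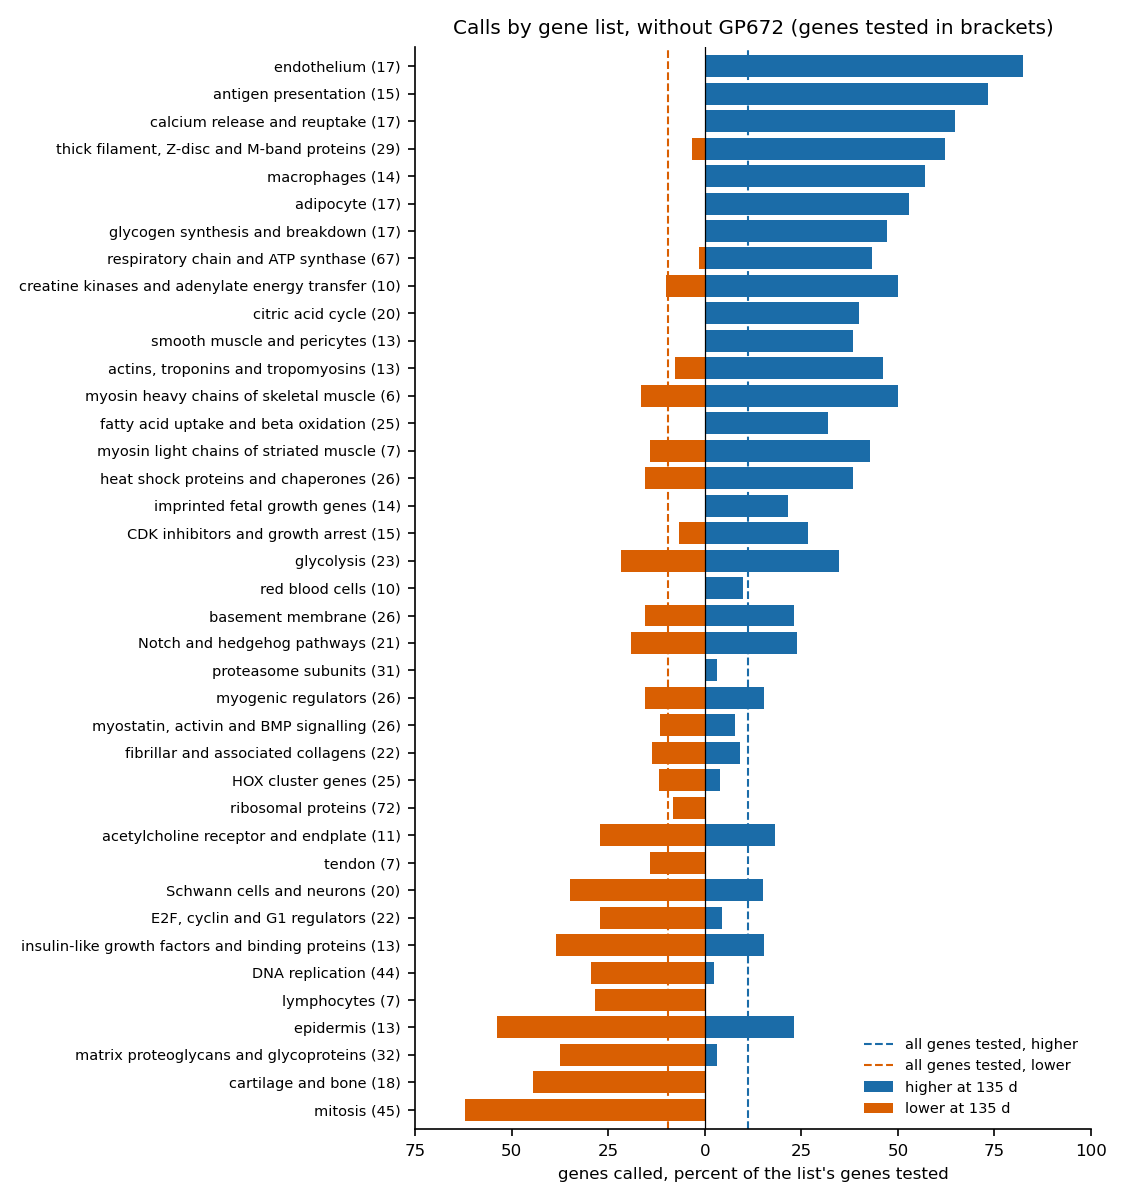
Share of each list's tested genes called higher (right) or lower (left) at 135 d without GP672. The number of genes tested stands in brackets, and dashed lines mark the shares over all genes, 11.3% higher and 9.44% lower.

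In calcium handling every call was a rise: 11 rose and 0 fell of 17 tested, with a median log2 difference of 0.78 (with GP672 0 rose, 0 fell, median 0.42). ATP2A1, the fast calcium pump of the sarcoplasmic reticulum, had a log2 intensity of 13.36 in GP663 and 13.76 in GW911 at 60 d and of 15.62 in GP012, 15.85 in GP921, 15.54 in GW625 and 15.96 in GW780 at 135 d, with 12.19 in GP672. Its log2 difference was 2.18 ± 0.17 (adjusted p = 5.1e-04) without and 1.47 (adjusted p = 0.47) with GP672, the 4 other fetuses lying above both 60 d animals. RYR1, the calcium release channel, rose by 1.64 ± 0.24 (0.90 with GP672, not called), and TRDN, the triadin that anchors its complex, by 1.56 ± 0.29 (0.50 with GP672, not called). At the endplate the members split: 2 rose and 3 fell of 11 tested, with a median log2 difference of -0.18 (with GP672 0 rose, 1 fell, median -0.54). Among all genes tested, 11.3% were higher and 9.44% lower, and 11 genes are few to set beside these shares. RAPSN and CHRNB1, a clustering protein and a receptor subunit, rose by 1.29 ± 0.25 (0.65 with GP672, not called) and by 1.12 ± 0.15 (0.46 with GP672, not called). MUSK and AGRN, the receptor kinase and the ligand that start clustering, fell with log2 differences of -1.49 ± 0.21 (-1.77 with GP672, not called) and of -1.24 ± 0.12 (-1.24 with GP672, called). CHRNA1, the alpha subunit, fell with a log2 difference of -0.65 ± 0.19 (-1.20 with GP672, not called). The fetal gamma subunit CHRNG and the adult epsilon subunit CHRNE were not called, at 0.26 ± 0.27 (adjusted p = 0.56) without and -0.70 (adjusted p = 0.84) with GP672 and at -0.43 ± 0.20 (adjusted p = 0.19) without and -0.43 (adjusted p = 0.28) with GP672.

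Transcription factors of the muscle lineage were called in both directions: 4 rose and 4 fell of 26 tested, with a median log2 difference of 0.01 (with GP672 0 rose, 1 fell, median -0.18). Over all genes 11.3% were higher and 9.44% lower. MYF6, the regulatory factor of maturing fibres, had a log2 intensity of 9.48 in GP663 and 9.72 in GW911 at 60 d and of 10.98 in GP012, 11.28 in GP921, 11.55 in GW625 and 11.59 in GW780 at 135 d, with 7.57 in GP672. It rose by 1.75 ± 0.19 (adjusted p = 0.0015) without and 0.99 (adjusted p = 0.68) with GP672. The other members of its family were not called. MYF5, which acts in early myoblasts, had 0.31 ± 0.23 (adjusted p = 0.39) without and -0.12 (adjusted p = 0.95) with GP672, MYOD1 had 0.31 ± 0.12 (adjusted p = 0.11) without and -0.80 (adjusted p = 0.84) with GP672, and MYOG, which acts at differentiation, had 0.20 ± 0.21 (adjusted p = 0.55) without and -0.70 (adjusted p = 0.83) with GP672. MEF2C, a partner of that family, rose by 0.92 ± 0.24 (0.43 with GP672, not called). TWIST1, known as an inhibitor of myogenesis, had a log2 intensity of 12.18 in GP663 and 11.57 in GW911, then of 9.83 in GP012, 9.82 in GP921, 10.30 in GW625 and 9.48 in GW780, with 10.54 in GP672. It fell with a log2 difference of -2.02 ± 0.25 (adjusted p = 0.0024) without and -1.88 (adjusted p = 0.022) with GP672. ID1 and ID4, which bind and block partners of the same family, fell with log2 differences of -0.93 ± 0.18 (-0.63 with GP672, not called) and of -0.68 ± 0.18 (-0.75 with GP672, not called). PAX3, a progenitor factor, was not called at -0.81 ± 0.26 (adjusted p = 0.069) without and -0.81 (adjusted p = 0.12) with GP672 and was above background in 2 of 5 channels at 135 d. NFIX, which switches embryonic to fetal myogenesis in mice, was not called at 0.03 ± 0.11 (adjusted p = 0.87) without and 0.02 (adjusted p = 0.95) with GP672.

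Myostatin did not pass the test. MSTN had a log2 intensity of 8.93 in GP663 and 9.28 in GW911 at 60 d and of 9.59 in GP012, 8.95 in GP921, 8.81 in GW625 and 9.32 in GW780 at 135 d, and was not well above background in GP672 with 6.87. Its log2 difference was 0.06 ± 0.23 (adjusted p = 0.89) without and -0.40 (adjusted p = 0.81) with GP672. In the list of myostatin, activin and BMP signalling, 2 rose and 3 fell of 26 tested, with a median log2 difference of -0.12 (with GP672 0 rose, 2 fell, median -0.22). These counts were close to the shares over all genes, 11.3% higher and 9.44% lower. GREM1, a BMP antagonist, fell with a log2 difference of -2.43 ± 0.40 (-2.53 with GP672, called) and INHBA, the activin subunit, of -0.95 ± 0.15 (-0.999 with GP672, called). INHBB, the other activin subunit, rose by 0.49 ± 0.13 (0.44 with GP672, not called). Of the insulin-like growth factors and their binding proteins, 2 rose and 5 fell of 13 tested, with a median log2 difference of -0.05 (with GP672 2 rose, 3 fell, median -0.13). IGF2, the fetal growth factor, was not called at 0.00 ± 0.13 (adjusted p = 0.99) without and -0.13 (adjusted p = 0.81) with GP672. IGF2BP2 and IGF2BP3, RNA-binding proteins that bind its messenger, fell with log2 differences of -1.72 ± 0.13 (-1.67 with GP672, called) and of -0.76 ± 0.12 (-0.80 with GP672, called). The binding proteins split, with IGFBP2 at -0.81 ± 0.14 (-0.86 with GP672, called) and IGFBP3 at -1.23 ± 0.21 (-1.005 with GP672, not called) but IGFBP6 at 0.98 ± 0.20 (0.96 with GP672, called). IGFALS, the acid-labile subunit, rose by 1.15 ± 0.17 (1.09 with GP672, called).

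Of imprinted fetal growth genes, 3 rose and 0 fell of 14 tested, with a median log2 difference of 0.13 (with GP672 0 rose, 0 fell, median 0.14). The shares over all genes were 11.3% higher and 9.44% lower. DLK1, known from the callipyge phenotype of sheep, rose by 0.87 ± 0.25 (0.53 with GP672, not called), and PLAGL1 and RTL1 by 0.69 ± 0.17 (0.69 with GP672, not called) and 0.50 ± 0.09 (0.43 with GP672, not called). CDKN1C, a cyclin kinase inhibitor, was not called at 0.22 ± 0.12 (adjusted p = 0.25) without and 0.45 (adjusted p = 0.52) with GP672. In the Notch and hedgehog lists, 5 rose and 4 fell of 21 tested, with a median log2 difference of -0.09 (with GP672 2 rose, 1 fell, median -0.04). The Notch ligands DLL4 and JAG1 rose by 1.05 ± 0.13 (1.05 with GP672, called) and by 0.85 ± 0.13 (0.93 with GP672, called), and the target HEYL by 1.29 ± 0.20 (1.02 with GP672, not called). GLI3, a hedgehog transcription factor, fell with a log2 difference of -1.10 ± 0.15 (-1.01 with GP672, called), GAS1 fell with -1.06 ± 0.26 (-1.10 with GP672, not called) and HES6 with -0.85 ± 0.11 (-1.31 with GP672, not called). Among HOX genes, which mark position along the body and limb, 1 rose and 3 fell of 25 tested, with a median log2 difference of -0.14 (with GP672 0 rose, 0 fell, median -0.22). Their share of falls was close to that over all genes, and their share of rises was below it. The largest fall was HOXD10 at -2.10 ± 0.47 (-1.995 with GP672, not called), above background in 3 of 5 channels at 135 d.

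Among genes of cell division, falls outnumbered rises. Of mitosis genes, 0 rose and 28 fell of 45 tested, with a median log2 difference of -0.59 (with GP672 0 rose, 22 fell, median -0.60), against 9.44% lower over all genes. TOP2A, the topoisomerase that separates sister chromatids, had a log2 intensity of 13.30 in GP663 and 13.11 in GW911 at 60 d and of 12.44 in GP012, 11.45 in GP921, 12.02 in GW625 and 11.84 in GW780 at 135 d, with 11.73 in GP672. Every 135 d animal was below both 60 d animals, and the log2 difference was -1.26 ± 0.25 (adjusted p = 0.012) without and -1.31 (adjusted p = 0.032) with GP672. CCNB1, the mitotic cyclin, had a log2 intensity of 9.998 in GP663 and 10.07 in GW911, then of 9.46 in GP012, 8.99 in GP921, 9.17 in GW625 and 9.004 in GW780, with 9.17 in GP672. It fell with a log2 difference of -0.88 ± 0.15 (adjusted p = 0.0072) without and -0.88 (adjusted p = 0.022) with GP672. CENPF, a kinetochore protein, fell with a log2 difference of -0.93 ± 0.13 (-0.97 with GP672, called), UBE2C with -0.87 ± 0.12 (-0.92 with GP672, called) and KIF20A with -0.94 ± 0.14 (-0.89 with GP672, called). For DNA replication, 1 rose and 13 fell of 44 tested, with a median log2 difference of -0.26 (with GP672 0 rose, 9 fell, median -0.29). TYMS and RRM2, which supply nucleotides, fell with log2 differences of -0.94 ± 0.12 (-0.88 with GP672, called) and of -0.78 ± 0.12 (-0.84 with GP672, called), and MCM2 of the replicative helicase with -0.87 ± 0.11 (-0.78 with GP672, called).

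Falls also outnumbered rises among regulators of the start of the cycle. Of E2F, cyclin and G1 genes, 1 rose and 6 fell of 22 tested, with a median log2 difference of -0.23 (with GP672 0 rose, 1 fell, median -0.22), against 11.3% higher and 9.44% lower over all genes. CCND1, cyclin D1, had a log2 intensity of 15.23 in GP663 and 14.95 in GW911 at 60 d and of 13.06 in GP012, 13.16 in GP921, 13.38 in GW625 and 13.30 in GW780 at 135 d, with 13.86 in GP672. The log2 difference was -1.86 ± 0.13 (adjusted p = 4.4e-04) without and -1.74 (adjusted p = 0.011) with GP672. CDC25A, a phosphatase that activates cyclin kinases, fell with a log2 difference of -0.93 ± 0.11 (-0.81 with GP672, not called), and RB1, the retinoblastoma protein, rose by 0.66 ± 0.14 (0.55 with GP672, not called). Of the inhibitors of the cycle, 4 rose and 1 fell of 15 tested, with a median log2 difference of 0.15 (with GP672 1 rose, 0 fell, median 0.17). CDKN2C, an inhibitor of the cyclin D kinases, rose by 1.03 ± 0.12 (1.06 with GP672, called) and TOB1 by 0.90 ± 0.14 (0.78 with GP672, not called), whereas GAS2 fell with a log2 difference of -1.85 ± 0.32 (-2.34 with GP672, not called).

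Among enzymes that buffer and store energy, CKM, PYGM and several others rose without GP672 and CKB fell. CKM, muscle creatine kinase, had a log2 intensity of 9.94 in GP663 and 10.64 in GW911 at 60 d and of 12.81 in GP012, 13.11 in GP921, 13.18 in GW625 and 13.75 in GW780 at 135 d, with 8.81 in GP672. Its log2 difference was 2.92 ± 0.29 (adjusted p = 0.0011) without and 2.04 (adjusted p = 0.42) with GP672, a 7.58-fold rise without GP672. Within slides 1, 2 and 3 the CKM difference was 2.77, 0.88 and 3.18, slide 2 being the one that holds GP672. CKB, the brain-type creatine kinase of immature muscle, had a log2 intensity of 15.27 in GP663 and 15.73 in GW911, then of 13.50 in GP012, 12.87 in GP921, 12.79 in GW625 and 12.51 in GW780, with 14.25 in GP672. It fell with a log2 difference of -2.58 ± 0.27 (adjusted p = 0.0013) without and -2.31 (adjusted p = 0.036) with GP672. In the list of creatine kinases and adenylate transfer, 5 rose and 1 fell of 10 tested, with a median log2 difference of 0.67 (with GP672 0 rose, 1 fell, median 0.50), with AK1 at 2.78 ± 0.21 (2.21 with GP672, not called) and AMPD1 at 1.36 ± 0.14 (0.02 with GP672, not called). Of glycogen genes, 8 rose and 0 fell of 17 tested, with a median log2 difference of 0.49 (with GP672 2 rose, 0 fell, median 0.33). PYGM, muscle glycogen phosphorylase, rose by 2.78 ± 0.23 (2.17 with GP672, not called) and PGM1 by 2.54 ± 0.17 (2.22 with GP672, called). PPP1R3A, which targets a phosphatase to glycogen, rose by 2.81 ± 0.20 (1.63 with GP672, not called) and was not well above background in GP672. CA3, the carbonic anhydrase of slow fibres, rose by 2.96 ± 0.31 (1.67 with GP672, not called), and PPP1R27 by 3.05 ± 0.29 (2.32 with GP672, not called).

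For glycolysis and glucose uptake, 8 rose and 5 fell of 23 tested, with a median log2 difference of 0.21 (with GP672 2 rose, 1 fell, median 0.29). Isoforms moved apart: SLC2A4 rose as above, while SLC2A1, the transporter of growing cells, fell with a log2 difference of -0.85 ± 0.16 (-0.83 with GP672, called). PFKFB1 rose by 2.50 ± 0.10 (2.19 with GP672, called), from 1 of 6 channels above background at 60 d, and PFKFB3 fell with a log2 difference of -0.85 ± 0.19 (-0.63 with GP672, not called). PGAM2, the muscle phosphoglycerate mutase, rose by 2.01 ± 0.34 (1.05 with GP672, not called), and ALDOC, the brain aldolase, fell with a log2 difference of -1.36 ± 0.36 (-0.99 with GP672, not called). Of the respiratory chain and ATP synthase, 29 rose and 1 fell of 67 tested, with a median log2 difference of 0.42 (with GP672 15 rose, 0 fell, median 0.47). COX7A1 and COX8B, subunits of cytochrome c oxidase of muscle and fat, rose by 1.40 ± 0.19 (1.54 with GP672, called) and by 1.99 ± 0.35 (2.22 with GP672, called), and UQCR11 by 1.15 ± 0.13 (1.09 with GP672, called). COX6A2, the muscle isoform, rose by 1.39 ± 0.25 (0.37 with GP672, not called), and COX8A fell with a log2 difference of -0.50 ± 0.12 (-0.23 with GP672, not called). In the citric acid cycle, 8 rose and 0 fell of 20 tested, with a median log2 difference of 0.28 (with GP672 2 rose, 0 fell, median 0.43), with SUCLA2 at 1.05 ± 0.10 (0.93 with GP672, called). Of fatty acid uptake and oxidation, 8 rose and 0 fell of 25 tested, with a median log2 difference of 0.32 (with GP672 1 rose, 0 fell, median 0.48). CPT1B, the muscle carnitine palmitoyltransferase, rose by 1.42 ± 0.12 (0.96 with GP672, not called), ACADS by 1.60 ± 0.13 (1.92 with GP672, not called) and MLYCD, malonyl-CoA decarboxylase, by 1.05 ± 0.17 (1.12 with GP672, called). GP672 was higher than the 4 others in this list by a median of 1.17 log2 units.

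Of fibrillar collagens and their enzymes, 2 rose and 3 fell of 22 tested, with a median log2 difference of -0.30 (with GP672 0 rose, 2 fell, median -0.25), shares close to the 11.3% higher and 9.44% lower over all genes. COL1A1, the main fibrillar collagen, was not called at -0.22 ± 0.33 (adjusted p = 0.69) without and -0.10 (adjusted p = 0.92) with GP672, nor was DCN, decorin, at -0.34 ± 0.17 (adjusted p = 0.21) without and -0.29 (adjusted p = 0.42) with GP672. COL22A1, a collagen of tissue junctions, fell with a log2 difference of -1.33 ± 0.17 (-1.52 with GP672, called) and LOXL2, a collagen cross-linking enzyme, of -1.07 ± 0.11 (-1.14 with GP672, called). Of matrix proteoglycans and glycoproteins, 1 rose and 12 fell of 32 tested, with a median log2 difference of -0.42 (with GP672 1 rose, 5 fell, median -0.56). TNC, tenascin C, had a log2 intensity of 14.22 in GP663 and 13.35 in GW911 at 60 d and of 12.06 in GP012, 11.43 in GP921, 12.41 in GW625 and 11.82 in GW780 at 135 d, with 12.28 in GP672. The difference was -1.85 ± 0.31 (adjusted p = 0.0072) without and -1.78 (adjusted p = 0.028) with GP672. FN1, fibronectin, fell with a log2 difference of -1.13 ± 0.21 (-1.09 with GP672, called) and MFAP4 with -1.08 ± 0.20 (-1.14 with GP672, called), while MFAP5 rose by 1.16 ± 0.17 (1.26 with GP672, called). For the basement membrane and its receptors, 6 rose and 4 fell of 26 tested, with a median log2 difference of 0.19 (with GP672 1 rose, 1 fell, median 0.04). COL15A1 rose by 1.52 ± 0.21 (1.44 with GP672, called). DMD and SGCA, dystrophin and a partner in its membrane complex, rose by 1.62 ± 0.22 (1.01 with GP672, not called) and by 1.40 ± 0.19 (0.56 with GP672, not called).

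The heat shock proteins and chaperones were mixed: 10 rose and 4 fell of 26 tested, with a median log2 difference of 0.10 (with GP672 2 rose, 0 fell, median 0.19). For all genes the shares were 11.3% higher and 9.44% lower. BAG3, a co-chaperone of the sarcomere, and HSPB1, a small heat shock protein, rose by 1.43 ± 0.13 (1.38 with GP672, called) and by 1.15 ± 0.15 (1.09 with GP672, called), and UNC45B, the myosin chaperone, by 1.74 ± 0.21 (0.59 with GP672, not called). HSPB3 fell with a log2 difference of -1.39 ± 0.24 (-2.15 with GP672, not called). Of ribosomal proteins, 0 rose and 6 fell of 72 tested, with a median log2 difference of -0.04 (with GP672 0 rose, 1 fell, median -0.04), and of proteasome subunits, 1 rose and 0 fell of 31 tested, with a median log2 difference of 0.02 (with GP672 0 rose, 0 fell, median -0.01).

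The endothelial, macrophage and antigen presentation lists held rises and no falls, against 11.3% higher and 9.44% lower over all genes. Of endothelial genes, 14 rose and 0 fell of 17 tested, with a median log2 difference of 0.64 (with GP672 6 rose, 0 fell, median 0.72), the highest share of rises among the 40 lists. PECAM1, an adhesion protein of endothelium, had a log2 intensity of 9.87 in GP663 and 10.19 in GW911 at 60 d and of 10.92 in GP012, 11.29 in GP921, 11.08 in GW625 and 11.35 in GW780 at 135 d, with 11.33 in GP672. All 5 fetuses at 135 d lay above both 60 d animals, and the difference was 1.13 ± 0.16 (adjusted p = 0.0035) without and 1.17 (adjusted p = 0.013) with GP672. EGFL7 and ESAM, also of endothelium, rose by 1.33 ± 0.18 (1.46 with GP672, called) and by 1.29 ± 0.16 (1.33 with GP672, called). The list summed to 30452 to 31628 at 60 d, to 51569 to 67377 in the 4 fetuses at 135 d and to 82583 in GP672. Of macrophage genes, 8 rose and 0 fell of 14 tested, with a median log2 difference of 0.55 (with GP672 5 rose, 0 fell, median 0.47). The complement genes C1QA, C1QB and C1QC rose by 1.13 ± 0.13 (1.25 with GP672, called), by 1.29 ± 0.16 (1.37 with GP672, called) and by 1.78 ± 0.12 (1.87 with GP672, called), whereas CD68, on the same list, was not called at 0.18 ± 0.10 (adjusted p = 0.27) without and 0.21 (adjusted p = 0.33) with GP672. Of antigen presentation, 11 rose and 0 fell of 15 tested, with a median log2 difference of 0.99 (with GP672 6 rose, 0 fell, median 1.01), with the class II gene BOLA-DRA at 2.02 ± 0.10 (1.95 with GP672, called) and the regulator IRF1 at 1.16 ± 0.11 (1.28 with GP672, called). CFB, a complement factor, rose by 2.93 ± 0.13 (2.45 with GP672, not called). For lymphocytes 0 rose and 2 fell of 7 tested, with a median log2 difference of 0.17 (with GP672 0 rose, 1 fell, median 0.19), so that calls and median had opposite signs. These 7 genes are too few to set their counts against the shares over all genes. For smooth muscle and pericytes 5 rose and 0 fell of 13 tested, with a median log2 difference of 0.57 (with GP672 0 rose, 0 fell, median 0.93), with MYH11, the smooth muscle heavy chain, at 1.70 ± 0.17 (2.60 with GP672, not called).

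Some adipocyte genes rose as well, and here the 135 d animals varied. FABP4, the fatty acid binding protein of adipocytes, had a log2 intensity of 7.46 in GP663 and 7.18 in GW911 at 60 d, in 4 of 6 channels above background, and of 9.15 in GP012, 11.49 in GP921, 11.89 in GW625 and 11.01 in GW780 at 135 d. GP672 stood far above with 16.49. The difference was 3.56 ± 0.68 (adjusted p = 0.011) without and 4.69 (adjusted p = 0.18) with GP672. CIDEC, a lipid droplet protein, was not well above background in any 60 d channel. The mean of the 4 fetuses at 135 d was at least 10.1-fold higher (adjusted p = 0.01), or at least 19.6-fold with GP672 (adjusted p = 0.15). Its log2 intensity was 6.80 in GP663 and 6.92 in GW911, then 8.70 in GP012, 10.65 in GP921, 10.23 in GW625 and 11.30 in GW780, with 14.96 in GP672. On slide 2, whose array also held GP672, GW780 stood 5.95 log2 units above the 60 d channels. CIDEA rose by 2.43 ± 0.37 (2.90 with GP672, not called), and CFD, the adipokine adipsin, by 1.38 ± 0.18 (1.56 with GP672, called). Of the list, 9 rose and 0 fell of 17 tested, with a median log2 difference of 0.84 (with GP672 1 rose, 0 fell, median 1.57). PPARG, the master regulator of fat cells, was not called at 0.50 ± 0.18 (adjusted p = 0.089) without and 1.40 (adjusted p = 0.61) with GP672. The adipocyte sum was 20204 to 21204 at 60 d. Of red cell genes, 1 rose and 0 fell of 10 tested, with a median log2 difference of -0.40 (with GP672 1 rose, 0 fell, median -0.16), again with opposite signs of call and median. The call was TAL1, a transcription factor of blood and vessel precursors, with 0.49 ± 0.09 (0.48 with GP672, called). The globins HBB, the adult beta chain, and HBE1, an embryonic chain, were not called, with HBB at -0.36 ± 0.44 (adjusted p = 0.62) without and 0.02 (adjusted p = 0.99) with GP672 and HBE1 at -0.18 ± 0.09 (adjusted p = 0.19) without and -0.22 (adjusted p = 0.28) with GP672.

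Markers of other tissues were measured because a sample of a small fetus can hold more than muscle, and several fell from 60 to 135 d. For Schwann cells and neurons, 3 rose and 7 fell of 20 tested, with a median log2 difference of -0.77 (with GP672 0 rose, 1 fell, median -0.62). DCX, a microtubule protein of young neurons, had a log2 intensity of 12.52 in GP663 and 12.12 in GW911 at 60 d and of 9.79 in GP012, 9.35 in GP921, 9.49 in GW625 and 9.27 in GW780 at 135 d, with 9.75 in GP672. It fell with a log2 difference of -2.85 ± 0.18 (adjusted p = 3.4e-04) without and -2.80 (adjusted p = 0.002) with GP672. Neurofilament genes were uneven at 60 d. PRPH, peripherin, had a log2 intensity of 14.02 in GP663 and 9.69 in GW911, then of 7.94 in GP012, 7.81 in GP921, 8.03 in GW625 and 7.95 in GW780, with 12.18 in GP672 and a difference of -3.92 ± 0.99 (adjusted p = 0.031) without and -3.07 (adjusted p = 0.31) with GP672. NEFM, the medium neurofilament, had a log2 intensity of 12.48 in GP663 and 8.50 in GW911, then of 7.34 in GP012, 7.04 in GP921, 7.28 in GW625 and 6.83 in GW780, a difference of -3.37 ± 0.92 (adjusted p = 0.04) without and -2.76 (adjusted p = 0.26) with GP672. STMN2 fell with a log2 difference of -2.88 ± 0.61 (-2.36 with GP672, not called) and was above background in 1 of 5 channels at 135 d. PMP22, a myelin protein of Schwann cells, rose by 1.12 ± 0.15 (0.91 with GP672, not called). This list summed to 66820 in GP663, 37983 in GW911, 36154 to 41186 in the 4 fetuses at 135 d and 22932 in GP672.

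Of cartilage and bone genes, 0 rose and 8 fell of 18 tested, with a median log2 difference of -1.32 (with GP672 0 rose, 3 fell, median -1.21). MATN1, a cartilage matrix protein, had a log2 intensity of 12.58 in GP663 and 9.51 in GW911 at 60 d and of 6.92 in GP012, 7.16 in GP921, 6.93 in GW625 and 6.93 in GW780 at 135 d, in 2 of 5 channels above background. The difference was -4.06 ± 0.71 (adjusted p = 0.0079) without and -4.05 (adjusted p = 0.024) with GP672. CNMD, chondromodulin, had a log2 intensity of 12.87 in GP663 and 8.65 in GW911, then of 7.19 in GP012, 7.15 in GP921, 7.20 in GW625 and 7.18 in GW780, a difference of -3.58 ± 0.97 (adjusted p = 0.039) without and -3.32 (adjusted p = 0.12) with GP672. COL9A2 and COL9A3, cartilage collagens, fell with log2 differences of -3.33 ± 0.36 (-2.79 with GP672, not called) and of -3.32 ± 0.50 (-2.83 with GP672, not called), and ACAN, aggrecan, of -1.26 ± 0.21 (-1.31 with GP672, called). The list summed to 116655 in GP663, 73579 in GW911, 25508 to 54779 in the 4 fetuses at 135 d and 24665 in GP672. For tendon, 0 rose and 1 fell of 7 tested, with a median log2 difference of -0.49 (with GP672 0 rose, 0 fell, median -0.68), with THBS4 at -1.16 ± 0.26 (-2.01 with GP672, not called).

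Of epidermal genes, 3 rose and 7 fell of 13 tested, with a median log2 difference of -0.48 (with GP672 2 rose, 2 fell, median -0.46). KRT15, a basal keratin, had a log2 intensity of 13.16 in GP663 and 13.01 in GW911 at 60 d and of 7.52 in GP012, 7.38 in GP921, 7.40 in GW625 and 8.47 in GW780 at 135 d, with 13.26 in GP672. The value of GW780 is the mean of 10.01 on slide 2 and 6.93 on slide 3. The difference was -5.39 ± 0.31 (adjusted p = 2.1e-04) without and -4.28 (adjusted p = 0.18) with GP672. KRT8, a keratin of simple epithelia that read 9.10 and 7.18 in the GW780 channels of slides 2 and 3, fell with a log2 difference of -2.88 ± 0.31 (-1.85 with GP672, not called) and KRT17, above background in 1 of 5 channels at 135 d, with -0.48 ± 0.09 (-0.46 with GP672, called), while CDH1, the epithelial cadherin, rose by 0.82 ± 0.10 (0.76 with GP672, called) from 1 of 6 channels above background at 60 d, and EPCAM by 0.90 ± 0.17 (0.93 with GP672, called). The remaining rise of the list was TP63, called without GP672 only. The median of this list depended on the processing. With the scanner's processed signals it was -2.50 without and -2.07 with GP672, and with channels centred on their medians -0.081 and -0.13. Over epidermal genes above background in all 12 channels, a limit that drops genes dim at 1 stage, the median was 0.16 without and 0.091 with GP672. The epidermal sum was 21200 to 24478 at 60 d, 4612 to 6074 in the 4 fetuses at 135 d and 27291 in GP672. The 60 d animals read nearly the same in KRT5 and KRT15 and far apart in PRPH, NEFM, MATN1 and CNMD, with GP663 the higher. Muscle identity genes had a median difference of -0.62 log2 units, GP663 minus GW911. The part of these other tissues in the muscle and cell division results was not tested.

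**Figure D4:**
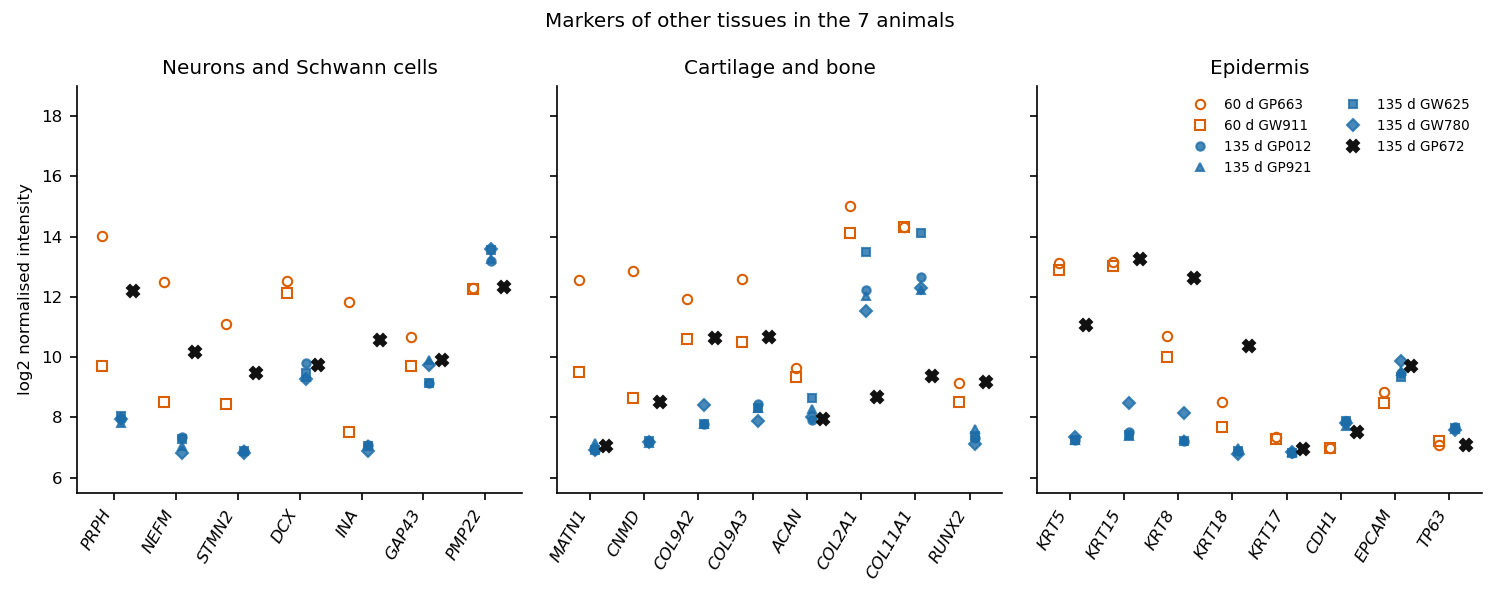
Log2 normalised intensity of neural, cartilage and epidermal genes in each of the 7 animals (open orange, 60 d; blue, 135 d; black X, GP672). GP663 lies above GW911 in PRPH, NEFM, MATN1 and CNMD, whereas the 60 d animals lie close together in KRT5 and KRT15.

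Whether the change from 60 to 135 d differed between the crosses was tested as an interaction of stage and cross. At 60 d each cross is 1 animal, so cross and animal cannot be told apart at that stage. With 7 animals limma called 0 genes (0%), 201 having an unadjusted p under 0.05. Without GP672 it called 78 (0.537%), 674 having an unadjusted p under 0.05. In that fit GP012 and GP921, the Piedmontese fetuses at 135 d, were both in Cy5, GW625 was in Cy3 and GW780 in both dyes. Cross and dye were therefore partly confounded at 135 d. With the dye effect of each gene removed as well it called 0, with 428 at an unadjusted p under 0.05. That dye effect was the mean Cy5 minus Cy3 difference over the 6 arrays, with the array of GP672 included. At 60 d GW911 was in Cy5 on slides 1 and 3 and GP663 on slide 2. The removed effect therefore also held differences between animals, and this setting did not separate dye from animal. The largest differences were mostly in neural genes that were high in GP663. RTN1, a reticulon of neurons, had a log2 intensity of 12.22 in GP663 and 7.09 in GW911 at 60 d and of 6.99 in GP012, 6.76 in GP921, 6.95 in GW625 and 6.52 in GW780 at 135 d. NSG2, a protein of neuronal endosomes, had a log2 intensity of 12.59 in GP663 and 7.99 in GW911, then of 7.41 in GP012, 7.10 in GP921, 7.42 in GW625 and 7.28 in GW780, and INA, alpha-internexin, of 11.83 in GP663 and 7.52 in GW911, then of 7.09 in GP012, 7.12 in GP921, 7.06 in GW625 and 6.87 in GW780. The interaction, the log2 change in the Piedmontese cross minus that in the Wagyu cross, was -4.99, -4.70 and -4.18 for RTN1, NSG2 and INA without GP672, and the adjusted p were 0.0047, 0.0037 and 0.0037. At 135 d RTN1, NSG2 and INA were above background in 1, 5 and 3 of 5 channels. MSTN gave no call for a difference between crosses, at -0.24 with 7 animals (adjusted p = 1) and at 0.56 without GP672 (adjusted p = 1).

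The 195 d and birth arrays of the same slides, with 5 and 6 animals, continue the course and are given as levels without a test. MYH3 was at a mean of 17.50 at 195 d (range 17.27 to 17.66) and 10.43 at birth (range 9.20 to 11.67), so the embryonic chain was still at its 135 d level at 195 d and low at birth. MYH8 was at 13.43 at 195 d (range 12.21 to 13.89) and 6.999 at birth (range 6.91 to 7.15). MYH1 was at 16.15 at 195 d (range 15.62 to 16.82) and 16.94 at birth (range 16.66 to 17.18). CKM was at 15.19 at 195 d (range 14.66 to 15.51) and 16.74 at birth (range 16.49 to 17.11), above every 135 d fetus at both later stages. ATP2A1 was at 16.69 at 195 d (range 16.42 to 16.99) and 17.11 at birth (range 16.73 to 17.49). MYH7 was at 16.70 at 195 d (range 15.70 to 17.31) and 17.09 at birth (range 16.57 to 17.33), with a 195 d range that overlapped the 135 d animals. TOP2A was at 11.14 at 195 d (range 10.91 to 11.41) and 7.91 at birth (range 7.53 to 8.19), and CCND1 at 13.04 at 195 d (range 12.90 to 13.18) and 11.36 at birth (range 10.82 to 11.75). KRT5 stayed at its 135 d level with 7.32 at 195 d (range 7.23 to 7.36) and 7.48 at birth (range 7.19 to 7.76). PECAM1 was at 11.94 at 195 d (range 11.61 to 12.28) and 10.58 at birth (range 10.16 to 10.92), so its birth range overlapped that of 60 d, and FABP4 was spread widely at 8.60 at 195 d (range 7.67 to 9.94) and 8.99 at birth (range 7.26 to 10.71). IGF2 was at 12.05 at 195 d (range 11.54 to 12.35) and 11.21 at birth (range 11.07 to 11.39).

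**Figure D5:**
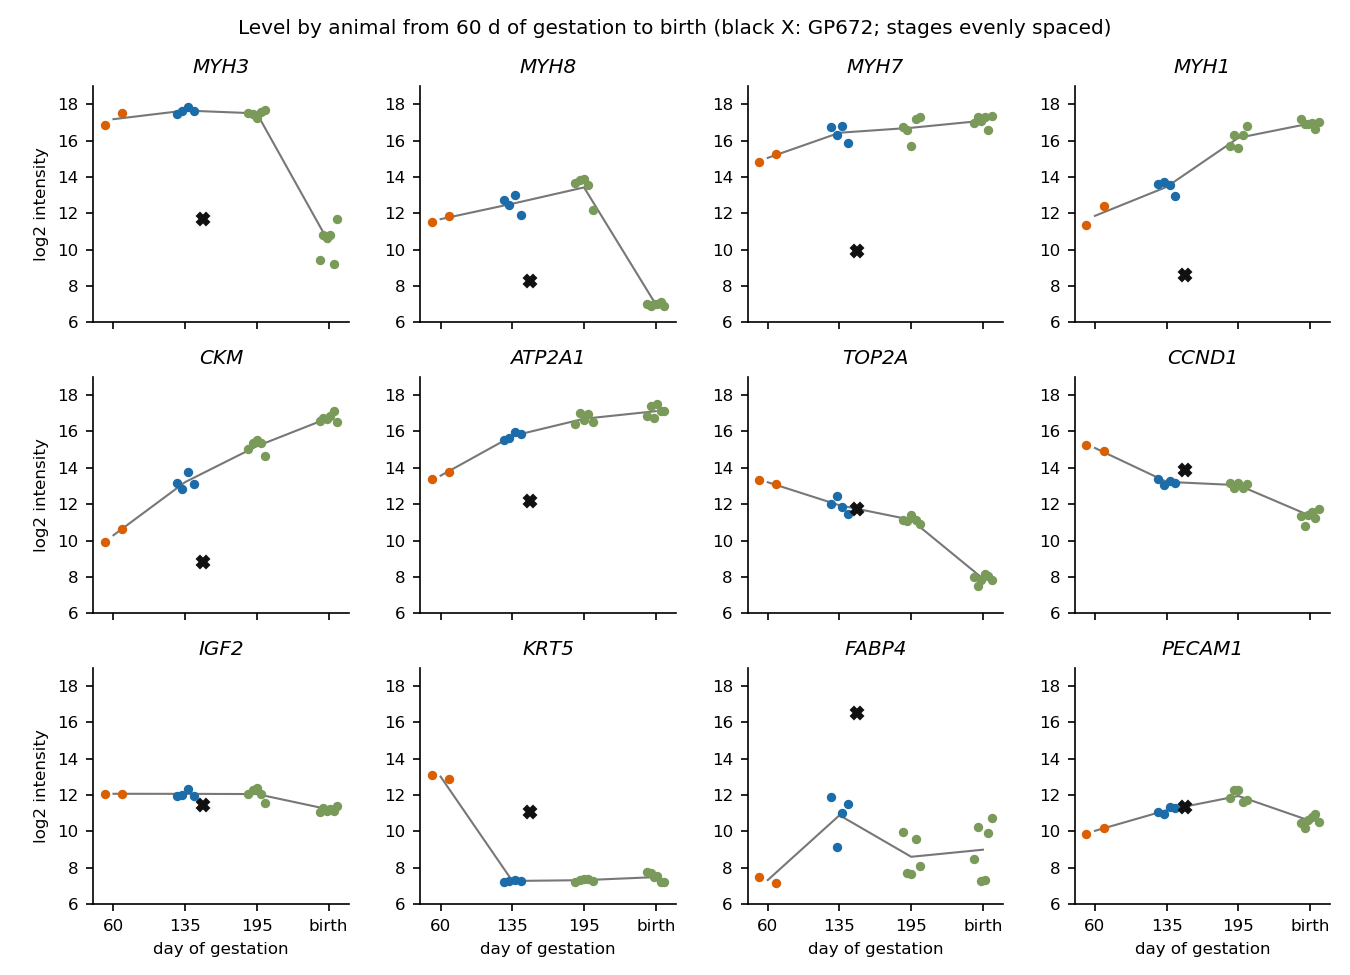
Log2 intensity of 12 genes in each animal at 60, 135 and 195 d of gestation and at birth, with a line through the stage means without GP672 (black X). MYH3 and MYH8 are lowest at birth, whereas the means of MYH1, CKM and ATP2A1 are higher at each later stage.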

How the data were processed

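RNA of bovine fetuses was measured on 2-colour Agilent arrays. The deposited mean and background intensities of each channel came from Agilent Feature Extraction (9.5.1 per the labels), as the authors left them, with no normalization. The authors' log10 ratios were not used. Here, normexp background correction (offset 50), loess within arrays and Aquantile between the 12 prenatal and birth arrays were applied with limma 3.58.1 in R 4.3.3, and spots of a probe, then probes of a gene, then channels of an animal were averaged on the log2 scale. Probes had to pass the scanner's background test in 6 or more of the 12 channels at 60 and 135 d, which left 15546 of 21475 probes and 14528 genes, named through the array files and the RefSeq names table.

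Stages were compared over animals with limma's moderated two-sided test and Benjamini-Hochberg adjustment. The fit without GP672 was added after seeing the data. Cross by stage was tested as an interaction. Channels of the same slide deviated together from their stage means (r = 0.448, 0.204 and 0.329), so slide and dye were also fitted as terms on single channels, with animal as a random block (duplicateCorrelation). Genes were named by rule: the 12 largest rises and falls, up to 3 of each per list, fixed genes and cell type markers, 206 in all by either fit, of which those not printed stand in the counts of their lists. CD68 and PPARG, and the genes high or low in GP672, were added after their values were seen. The 40 gene lists and the animals compared were chosen with earlier results of these data known. The script was tested on simulated data. A few genes chosen by the rule are not reported here.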

Additional observations from a re-analysis of the deposited data

Results flagged for a closer look

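In 69 of the 170 named genes, 1 of the 5 animals at 135 d lay so far off that its gap to the nearest other was more than 0.71 of the range of the group. Chance gives this in about 1 of 20 groups, but that rate does not apply to these genes, many of which were named by the fit without GP672 and so for agreement among the 4 other fetuses. GP672 was that animal in each of them, lowest in 52 and highest in 17. The value in brackets is the gap as a share of the range. It was the lowest for AK1 (0.786), AMPD1 (0.972), ATP2A1 (0.887), CA3 (0.904), CFB (0.909), CHRNA1 (0.837), CHRNB1 (0.909), CHRNG (0.952), CKM (0.808), COX6A2 (0.876), CPT1B (0.908), DMD (0.814), HBE1 (0.732) and HES6 (0.902). Lowest too were HMGA2 (0.745), HSPB3 (0.883), LMOD2 (0.765), MEF2C (0.760), MSTN (0.713), MUSK (0.808), MYF5 (0.767), MYF6 (0.847), MYH1 (0.856), MYH3 (0.935), MYH4 (0.844), MYH7 (0.871), MYH7B (0.809) and MYH8 (0.772). The same held for MYL1 (0.947), MYL11 (0.917), MYL4 (0.941), MYL6B (0.866), MYL7 (0.847), MYOC (0.793), MYOD1 (0.988), MYOG (0.884), MYOZ1 (0.921), NRAP (0.806), PDLIM3 (0.758), PFKFB1 (0.867), PGAM2 (0.827) and PPP1R27 (0.814). Further genes with GP672 lowest were PPP1R3A (0.923), PYGM (0.772), RAPSN (0.790), RYR1 (0.811), SGCA (0.911), THBS4 (0.791), TNNT3 (0.913), TPM1 (0.946), TRDN (0.845) and UNC45B (0.928). It was the highest for ACADS (0.850), ACOX2 (0.892), ALDOC (0.788), APCDD1 (0.851), CNMD (0.960), COL26A1 (0.916), COL9A2 (0.771), COL9A3 (0.805), COX8A (0.806), KRT15 (0.814), KRT5 (0.972), KRT8 (0.827), MYH11 (0.865) and NEFM (0.850). Highest too were PPARG (0.865), PRPH (0.949) and STMN2 (0.952).

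Without GP672, limma's interaction of stage and cross (change in the Piedmontese minus that in the Wagyu cross) passed an adjusted p of 0.05 in 78 genes, and in 0 once the dye effect was removed as well. The dye effect so removed also held differences between animals, GP672 among them. At 60 d each cross is 1 animal, so a difference between crosses cannot be told apart from one between GP663 and GW911. The largest values were -4.99 for RTN1, -4.70 for NSG2, -4.52 for MAP6, -4.44 for PRPH, -4.25 for CNMD, -4.18 for INA, -4.07 for STMN3, -3.86 for MAPT, -3.84 for NEFM and -3.84 for CHGB on the log2 scale. All of these genes were higher in GP663 than in GW911 at 60 d, and none was called with all 7 animals.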

How the results depend on the processing

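With 7 animals, the 737 genes called became 92 with median centring of channels, 1126 with the dye effect removed, 2760 with slide as a replicate block, 403 with cross as a covariate and 1614 with all prenatal and newborn animals in 1 fit. Leaving out 1 animal or slide gave 34 to 3019, the lowest without GP663 and the highest without GP672. Without GP672, the 3019 became 439 with median centring, 5253 with slide as a replicate block and 1197 to 2848 when a further animal or slide was left out, the lowest again without GP663. Of the 737, 91 remained under median centring and 733 under the block, a fit on 12 single channels with animal as a random block, in which both the unit and the terms changed. The cause was not tested. The difference between crosses gave 0 to 78 genes when an animal was left out, 78 being without GP672, and then 48 with quantile normalization of single channels. The other settings kept the counts within 1.5 times.

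Among named genes with 7 animals, the sign turned in values near 0: -0.20 for AMPD1 and -0.00012 for MYH7 with scanner processed signals, -0.089 for AMPD1, -0.086 for HBB, 0.077 for HBE1 and 0.015 for IGF2 with median centring of channels, -0.033 for AMPD1 with the 6 arrays normalized alone, -0.034 for HBB and 0.056 for MYH8 with slide as replicate block, -0.070 for HBB and 0.15 for MYH8 with cross as covariate. Without GP672 (settings combined after seeing the data) it turned as follows: 0.018 for IGF2 and -0.017 for MYL4 with scanner processed signals, -0.011 for MYL4 with quantile normalization of single channels, 0.16 for HBE1, 0.18 for IGF2, -0.12 for MSTN and -0.012 for MYL4 with median centring of channels, -0.031 for MSTN and -0.13 for MYL4 with dye effect removed, 0.068 for IGF2, -0.019 for MSTN and -0.010 for MYL4 with slide as replicate block. When an animal or slide was left out, the sign turned with 7 animals in AMPD1 (-0.86 to 1.36), MYH7 (-0.86 to 1.41), MYL11 (-0.47 to 1.24), MYL7 (-0.61 to 1.33), HBB (-0.38 to 0.29), MYF5 (-0.46 to 0.31), MYH8 (-0.75 to 1.03), COL1A1 (-0.23 to 0.11), CHRNG (-1.38 to 0.33), MSTN (-0.62 to 0.058), MYH3 (-1.49 to 0.48), MYL1 (-2.07 to 0.81), MYL4 (-1.62 to 0.0079), MYOD1 (-1.55 to 0.32), MYOG (-1.28 to 0.20), NFIX (-0.016 to 0.053), COX6A2 (-0.10 to 1.39), COX8A (-0.54 to 0.028), MYH1 (-0.049 to 1.63), TRDN (-0.23 to 1.67), UNC45B (-0.12 to 1.74) and IGF2 (-0.23 to 0.012). Without GP672 and leaving out a further animal or slide it turned in CHRNG (-0.29 to 0.82), MSTN (-0.12 to 0.25), MYF5 (-0.024 to 0.65), MYL4 (-0.27 to 0.28), MYOG (-0.037 to 0.45), IGF2 (-0.093 to 0.082), COL1A1 (-0.44 to 0.018) and NFIX (-0.014 to 0.071). In brackets stand the lowest and highest log2 differences. Where the dye effect was removed without GP672, it had been estimated with the array of GP672 included. Over all settings, 464 values of named genes lost and 216 gained a call with 7 animals, against 3132 on the same side, and 274 lost and 24 gained one without GP672, against 3385. Of the list medians, 23 with 7 animals and 62 without GP672 moved by more than the spread between animals, against 897 and 818 that did not. The spread was taken over the fetuses of the later stage, and with 7 animals it included GP672. The median gap of GP672 to the others of its stage was -4.56 in myosin heavy chains and 3.56 in adipocyte genes. In such lists the rule could hardly count a median as moved, so no conclusion on stability is drawn from the 897. Without GP672, the scanner's processed signals gave medians of -1.99 for cartilage and bone, -1.66 for Schwann cells and neurons, 1.63 for adipocytes, 1.49 for antigen presentation and 1.10 for creatine kinases. Genes above background in all 12 channels gave 0.35 for adipocytes and -0.37 for Schwann cells and neurons, and no filter gave -0.67 for cartilage and bone. The Notch and hedgehog median turned to 0.13 with median centring and 0.22 over genes above background in all 12 channels. With 2 animals at 60 d, 1 per cross, and 1 position per stage, the animal, cross, position and stage limits stated above hold for every setting. Signals near background bound differences in genes such as CIDEC, where the 60 d value is only a limit.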
